A study of Zea mays with 4 samples.

Results

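The genes of abscisic acid, gibberellin and jasmonate synthesis and response were represented by 99 of the 55547 maize probes on spotted oligonucleotide arrays of maize (Zea mays) roots. Their deposited gene description, read up to the species name, holds abscisic, gibberellin, jasmon, lipoxygenase, allene oxide, oxophytodienoate or epoxycarotenoid, without auxin or ethylene, and each probe had 1 spot on 1 array version only. Version A held 51 of them and version B held 48. A 60 kDa jasmonate-induced protein probe, MZ00041543, matches the words but had 2 spots on version B and is not among the 99. The descriptions come from japonica rice proteins for 47 of the probes and from maize proteins for 25. No probe was chosen by a measured value, but the members were chosen with earlier results of these data known.

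Nitrate-treated roots had received 1 mM nitrate for 1 h on one side of a split root system, and control roots came from the side kept without nitrogen, where 1 mM CaCl2 made up for the calcium. All plants had first grown for 6 days with 0.5 mM nitrate and for 2 days without nitrogen, and were sampled at day 10 as root segments of 15 cm from the tip. Each array set RNA of nitrate-treated roots, labelled with Cy3, against RNA of control roots, labelled with Cy5, with 2 replicate arrays per version. The sources used here give neither the maize line nor whether both sides came from the same plants. The comparison asks which root transcripts differ in level soon after nitrate is supplied locally. A whole root segment mixes cell types, so fewer cells of a type and less RNA per cell cannot be told apart.

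Abscisic acid is made from carotenoids that 9-cis-epoxycarotenoid dioxygenases cleave, and it acts through bZIP transcription factors on stress-related genes. Gibberellin 20-oxidases catalyse late steps of gibberellin synthesis, and the hormone acts by removing repressors of the DELLA family. Jasmonates are made from linolenic acid by lipoxygenase, allene oxide synthase, allene oxide cyclase and 12-oxophytodienoate reductase in turn. In roots, abscisic acid and gibberellin are known to act in opposite ways on growth, and jasmonate is known for wound and defence responses and for slower root growth.

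No hormone probe passed the limma test over all probes of its version, and none was at least 2-fold higher or at least 2-fold lower with nitrate on both arrays. The limma test compared the mean log2 ratio of nitrate over control of 2 arrays with 0, with Benjamini-Hochberg adjustment and a threshold of 0.05, and 95 of the 99 probes had enough signal to enter it. Among all tested probes of both versions, 0.0245% passed (0% of version A in either direction, and on version B 0.0525% higher and 0% lower), 0.591% had a ratio of 2-fold or more on both arrays (0.592% in version A, 0.59% in version B), and 0.0941% were past 2-fold in the other direction on both (0.127% in version A, 0.0566% in version B). The smallest limma adjusted p among the hormone probes was 0.298. An unadjusted limma p under 0.05 was found for 11 of the 95, of which 3 were higher and 8 were lower with nitrate, where 12.5% of all tested probes had such a p (7.59% higher and 4.86% lower). The count of 11 of 95 is near that share of all probes. The mean log2 ratios of the hormone probes ran between -0.93 and 0.67.

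The hormone probes lay slightly below the centre of the arrays, with a median log2 ratio of -0.09, against 1.0e-05 for all tested maize probes. The median of the same 95 probes was -0.02 on the replicate 1 arrays and -0.15 on the replicate 2 arrays. They were lower with nitrate on both arrays for 35 of the 95 (30.4% of all tested probes) and higher on both for 20 (30.1% of all tested probes), and their sign was opposite on the replicates for the other 40. Of the 20 higher, 3 give no exact ratio, because they were saturated or not above blank spots in control roots, which leaves 17 of 92 higher. On version A 19 of 47 were lower on both arrays (30.1% of all probes of that version) and 6 were higher on both (30.4%). On version B 16 of 48 were lower on both arrays (30.6%) and 14 were higher on both (29.7%). By hormone, the 18 abscisic acid probes had a median of -0.19 (-0.04 on the replicate 1 arrays and -0.28 on the replicate 2 arrays), with 10 lower and 3 higher on both. The 29 tested gibberellin probes had a median of -0.12 (-0.13 and -0.07 by replicate), with 11 lower and 6 higher on both arrays. The 48 tested jasmonate probes had a median of -0.06 (0.03 and -0.13), with 14 lower and 11 higher. Differences between these medians were not tested, and the order of abscisic acid and gibberellin turned with print-tip loess (-0.11 and -0.14) and with the authors' ratios (-0.14 and -0.15).

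**Figure D1:**
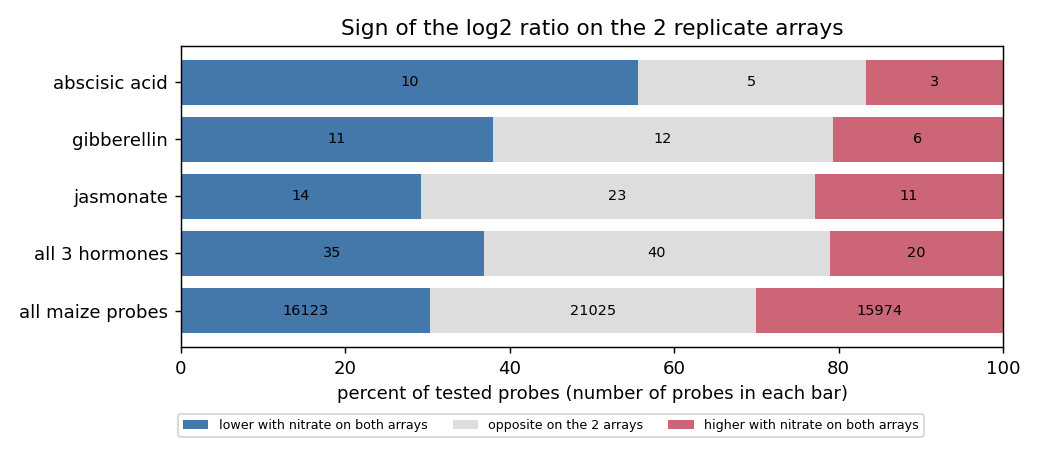
Percent of tested probes (x axis) whose log2 ratio of nitrate over control was below 0 on both arrays, opposite on the replicates, or above 0 on both, for the probes of each hormone, the 95 tested hormone probes together and all tested maize probes. The number in each bar is the count of probes, with 10 of 18 abscisic acid probes in the lower segment.

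The replicate arrays ordered the hormone probes differently. Pearson's r between the log2 ratios of replicate 1 and replicate 2 was 0.02 across the 47 probes of version A and 0.22 across the 48 of version B, against 0.29 and 0.27 across all tested probes of each version. This is a description across probes, which share their arrays and are not independent. The median SD between replicates was 0.32 for the hormone probes of version A and 0.23 for those of version B, against 0.25 and 0.24 over all probes.

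**Figure D2:**
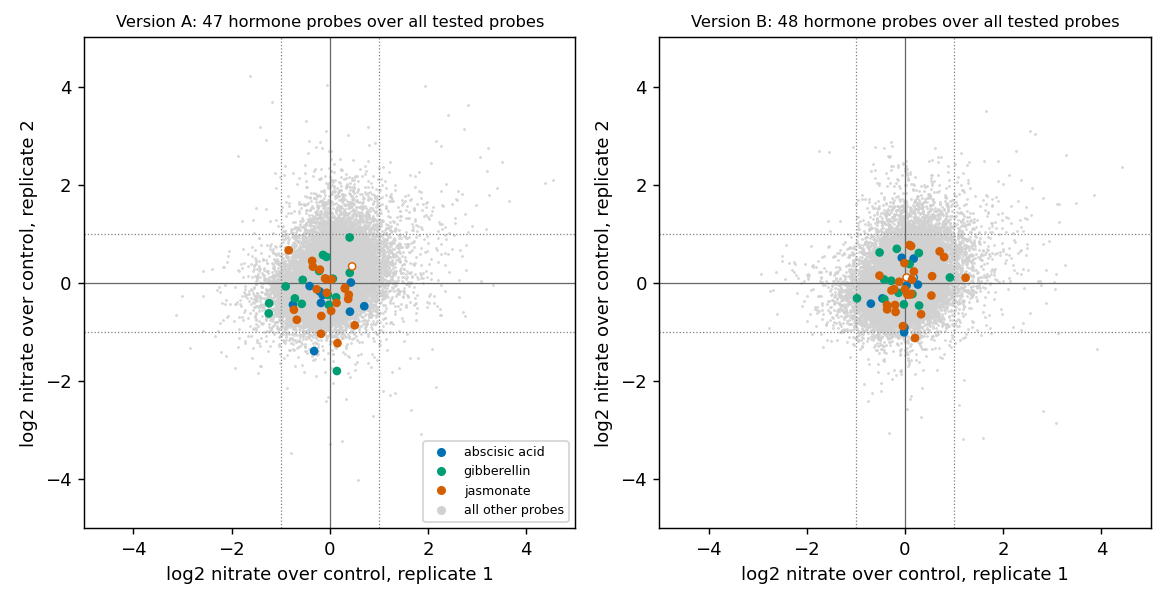
Log2 ratio of nitrate over control on the replicate 1 array (x axis) and the replicate 2 array (y axis) for each tested probe, with all other maize probes in grey, and with dotted lines at 2-fold. Open symbols are the 3 probes that give no exact ratio. None of the 95 coloured hormone probes lies past a dotted line in the same direction on both axes.

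Both 9-cis-epoxycarotenoid dioxygenase probes, which match the same rice protein, stood for abscisic acid synthesis, and neither passed the test. MZ00004457 had intensities of 652 and 1379 in nitrate-treated roots, against 1153 and 1683 in control roots. It was lower with nitrate on each array although the intensities of both groups overlap across arrays, and its log2 ratio was -0.60 ± 0.22 (SD, n = 2, adjusted p = 0.398 by limma), or -0.94 with the authors' ratios. The other probe, MZ00042589, had 1015 and 643 with nitrate, against 922 and 438 in control roots, and a log2 ratio of -0.01 ± 0.06 (SD, n = 2). The sign of that second ratio turned with the normalization, so that the enzyme was lower on both arrays by 1 of its 2 probes.

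Of the 3 probes for bZIP factors of abscisic acid signalling, 2 were lower with nitrate on both arrays. ABI5, known from Arabidopsis, is such a factor and acts in seed germination and seedling growth. The ABI5-like probe MZ00046472 had intensities of 395 and 405 with nitrate, against 548 and 361 in control roots, and log2 ratios of -0.69 and -0.42 after loess, with a mean of -0.56 that was -0.18 with median centring and with print-tip loess. On the replicate 2 array the deposited intensity was thus the higher one with nitrate, and the lower ratio came with the normalization. The other ABI5-like probe, MZ00002759, which matches the same rice protein, had 736 and 1217 with nitrate, against 647 and 566 in control roots, and a log2 ratio of 0.22 ± 0.41 (SD, n = 2). The probe for an ABA-responsive element binding factor, MZ00036883, had 2363 and 4470 with nitrate, against 3860 and 4856 in control roots, and a log2 ratio of -0.39 ± 0.10 (SD, n = 2), or -0.22 with print-tip loess and the authors' ratios. It was lower with nitrate on each array, with a limma adjusted p of 0.535. MZ00029811, for an abscisic acid-inducible protein kinase, had a log2 ratio of -0.24 ± 0.24 (SD, n = 2).

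The abscisic stress ripening proteins, small hydrophilic proteins that accumulate with drought and abscisic acid, had 3 of 4 probes lower with nitrate on both arrays and a median log2 ratio of -0.35, which was -0.08 on the replicate 1 arrays and -0.63 on the replicate 2 arrays. All 4 match the same apricot protein. MZ00027338 had intensities of 12880 and 6879 with nitrate, against 21037 and 20688 in control roots. Both nitrate readings lay below both control readings, but the ratio on the replicate 2 array, -1.39, was far from that on the replicate 1 array, -0.32. Its mean log2 ratio of -0.85 ± 0.76 (SD, n = 2) had a limma adjusted p of 0.379. MZ00044185 showed the same split, with 21290 and 13075 with nitrate, against 29370 and 26696 in control roots, and log2 ratios of -0.02 and -1.005. In both probes the replicate 2 array carried the larger difference. The remaining probes were MZ00018536, with a log2 ratio of -0.19 ± 0.07 (SD, n = 2), and MZ00036335, with a log2 ratio of 0.34 ± 0.23 (SD, n = 2), and of -0.00857 when the arrays were centred on the median. On the replicate 2 array MZ00018536 read 421 with nitrate, against 390 in control roots, and its mean was -0.00911 with median centring.

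The other abscisic acid-responsive probes had mean log2 ratios between -0.46 and 0.22. The glycine-rich RNA-binding protein, an abscisic acid-inducible protein known from maize embryos, had 2 probes. MZ00037908 had intensities of 64138 and 63280 with nitrate, against 73867 and 63327 in control roots, and was saturated in the control channel of both arrays and in the nitrate channel of 1, so it gives no ratio. MZ00041068, unsaturated, had 5937 and 4057 with nitrate, against 6234 and 3530 in control roots, and a log2 ratio of 0.11 ± 0.21 (SD, n = 2), which was negative with median centring. The 6 probes for abscisic acid-induced proteins of unnamed function had a median of -0.14 (0.05 with median centring, and 0.20 and -0.44 by replicate), with 3 lower and 1 higher on both arrays. Among the 3, MZ00018961 had the higher deposited intensity with nitrate on each array, with 236 and 132 against 224 and 121. Its mean log2 ratio was -0.29 after loess and 0.04 with median centring. MZ00019826 was dim, with 186 and 43 with nitrate, against 68 and 2 in control roots, where it was above blank spots on 1 of 2 arrays. Its log2 ratio differed widely between settings, at 0.22 after normexp, 1.24 without it and 2.31 with the authors' ratios.

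**Figure D3:**
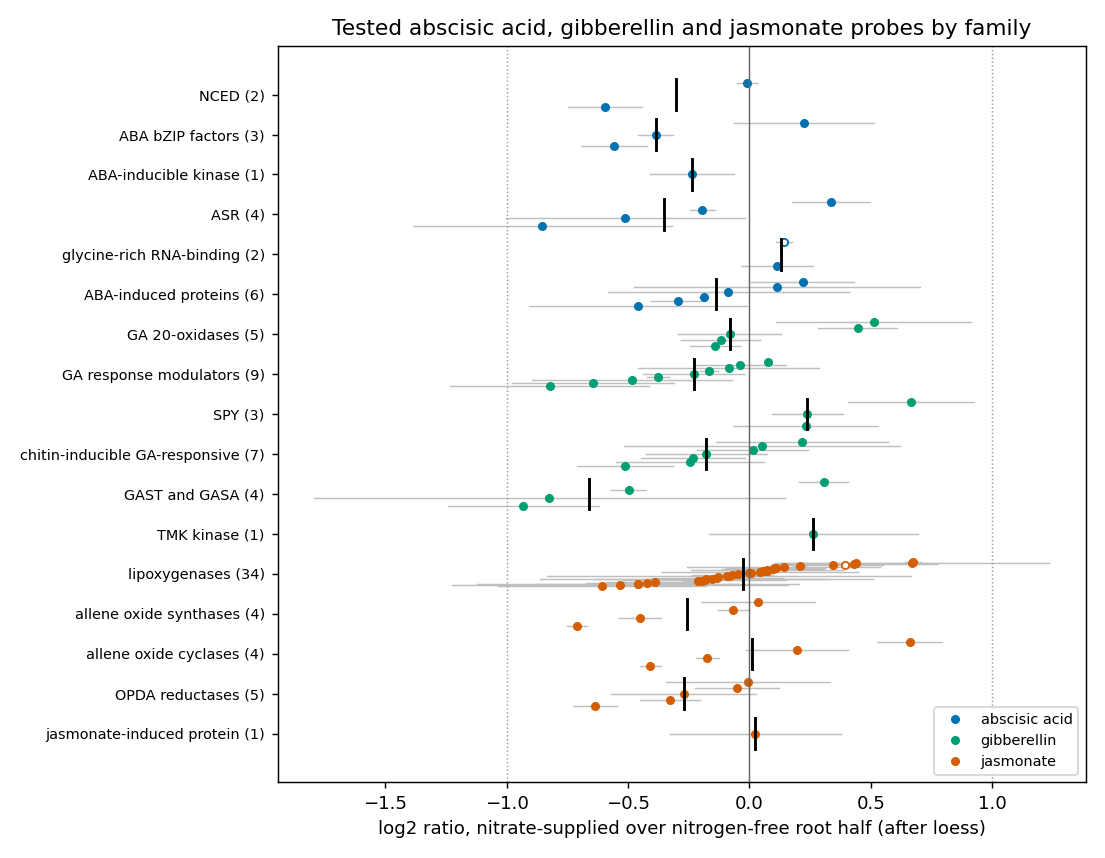
Mean log2 ratio of nitrate over control (x axis) of each tested hormone probe, by family (y axis, number of probes in brackets). Grey lines join the replicate arrays, open symbols give no exact ratio, black bars are family medians, and dotted lines mark 2-fold; medians of the 34 lipoxygenase, 5 gibberellin 20-oxidase, 6 abscisic acid-induced, 4 allene oxide cyclase, 2 glycine-rich RNA-binding and 1 jasmonate-induced probes change sign with the normalization.

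Gibberellin synthesis was represented by 5 gibberellin 20-oxidase or 20-dioxygenase probes, with a median log2 ratio of -0.08 (0.05 with median centring) and a range of -0.14 to 0.51. The 2 highest were among the 8 highest hormone probes with the same sign on both arrays. MZ00048759 had intensities of 871 and 324 with nitrate, against 280 and 150 in control roots, and log2 ratios of 0.91 and 0.11, with a mean of 0.51 that was 0.31 with print-tip loess and 0.92 with median centring. MZ00049763 had 9892 and 11389 with nitrate, against 10742 and 6936 in control roots, and a log2 ratio of 0.45 ± 0.23 (SD, n = 2). The value for MZ00049763 was 0.14 with median centring, 0.19 with print-tip loess and 0.17 with the authors' ratios. Neither passed the test, with limma adjusted p of 0.467 for MZ00048759 and 0.478 for MZ00049763. The other 3, MZ00007814, MZ00048164 and MZ00018690, had log2 ratios between -0.14 and -0.08.

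The gibberellin response modulators, a description given to DELLA-type repressors of gibberellin response, were mostly lower with nitrate. Of 9 tested probes 6 were lower and 1 was higher on both arrays, and their median log2 ratio was -0.23 (-0.13 and -0.31 by replicate). The 4 probes that match the maize protein of this description were lower on both arrays, with a median of -0.56 (-0.94 and -0.26 by replicate). MZ00023755 had intensities of 776 and 718 with nitrate, against 2024 and 810 in control roots. MZ00037684 had 1858 and 2343 with nitrate, against 4417 and 2370 in control roots. MZ00023754 had 7796 and 5783 with nitrate, against 18583 and 6333 in control roots. In each of these 3 the difference lay mainly on the replicate 1 array, where log2 ratios were -1.23, -0.98 and -0.90, while on the replicate 2 array they were -0.41, -0.31 and -0.07. The means were -0.82 ± 0.58 for MZ00023755, -0.64 ± 0.47 for MZ00037684 and -0.48 ± 0.59 for MZ00023754 (SD, n = 2 each), with limma adjusted p of 0.36, 0.35 and 0.498. The fourth probe, MZ00043101, had 1039 and 894 with nitrate, against 1109 and 737 in control roots, and a log2 ratio of -0.17 ± 0.05 (SD, n = 2). On the replicate 2 array its deposited intensity was the higher one with nitrate, and its mean was -0.03 with median centring. These 4 probes sit on different array versions, 2 on each, and their target transcripts may overlap. The 4 tested probes that match a rice protein of the same description had a median of -0.16, with 2 lower and 1 higher on both arrays. MZ00032134, a further match to that rice protein, had readings between -5 and 7 and was not tested.

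SPINDLY, abbreviated SPY in the descriptions, is known from Arabidopsis as a negative regulator of gibberellin signalling, and its 3 probes had positive mean log2 ratios between 0.23 and 0.67. Their median was 0.24 (0.09 and 0.53 by replicate), and 2 of them were higher with nitrate on both arrays. MZ00020277 had intensities of 3734 and 8235 with nitrate, against 3141 and 4472 in control roots. It was higher with nitrate on each array, with log2 ratios of 0.41 and 0.93, a mean of 0.67 ± 0.37 (SD, n = 2) and a limma adjusted p of 0.386. MZ00019836, which matches the same protein, had 1449 and 4864 with nitrate, against 1582 and 3303 in control roots, and log2 ratios of -0.07 and 0.53. The third, MZ00028948, had a log2 ratio of 0.24 ± 0.21 (SD, n = 2), whose sign turned with median centring.

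Targets of gibberellin gave mixed values. GAST and GASA proteins are small cysteine-rich peptides first described as gibberellin-stimulated transcripts, and of their 4 probes 2 were lower and 1 was higher on both arrays, with a median of -0.66 (-0.21 and -0.52 by replicate). MZ00015327, for a GAST1-like protein, was the lowest of the 95 tested hormone probes. It had intensities of 2118 and 2376 with nitrate, against 5835 and 3510 in control roots, so both nitrate readings lay below both control readings. Its log2 ratios were -1.24 and -0.62, with a mean of -0.93 ± 0.44 (SD, n = 2) and a limma adjusted p of 0.312. MZ00033558 matches the same rice protein and had 1689 and 1689 with nitrate, against 2769 and 2074 in control roots, and a log2 ratio of -0.50 ± 0.10 (SD, n = 2, adjusted p = 0.432 by limma). The GAST1-like pair was thus lower on both arrays by both of its probes. Another 4 probes described as a GAST-like gene product, outside the 99, had a median of -0.11 (-0.10 and 0.24 by replicate), with 0 lower and 1 higher on both arrays. MZ00026517, a gibberellin-regulated protein, had 752 and 1134 with nitrate, against 635 and 3806 in control roots, and log2 ratios of 0.15 and -1.79 with opposite signs. MZ00016853, for gibberellin-regulated protein 2, had 3806 and 7174 with nitrate, against 3202 and 6574 in control roots, and a log2 ratio of 0.31 ± 0.14 (SD, n = 2), or 0.07 with print-tip loess and the authors' ratios.

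The chitin-inducible gibberellin-responsive proteins, GRAS-family regulators described in rice, had 7 probes with a median log2 ratio of -0.18 (-0.43 on the replicate 1 arrays, 0.07 on the replicate 2 arrays, and -0.03 with median centring). Only 2 of the 7 were lower on both arrays, MZ00021508 and MZ00034043, and the other 5 had opposite signs. MZ00021508 had intensities of 2350 and 3538 with nitrate, against 4383 and 4365 in control roots, and a log2 ratio of -0.51 ± 0.28 (SD, n = 2, adjusted p = 0.437 by limma). The 3 probes that match one rice protein of the family had a median of -0.52 on the replicate 1 arrays and 0.57 on the replicate 2 arrays, so the replicates differed in sign for all 3. MZ00038791, for a gibberellin-induced receptor-like kinase, had 1339 and 2548 with nitrate, against 1582 and 1171 in control roots, and log2 ratios of -0.17 and 0.70.

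**Figure D4:**
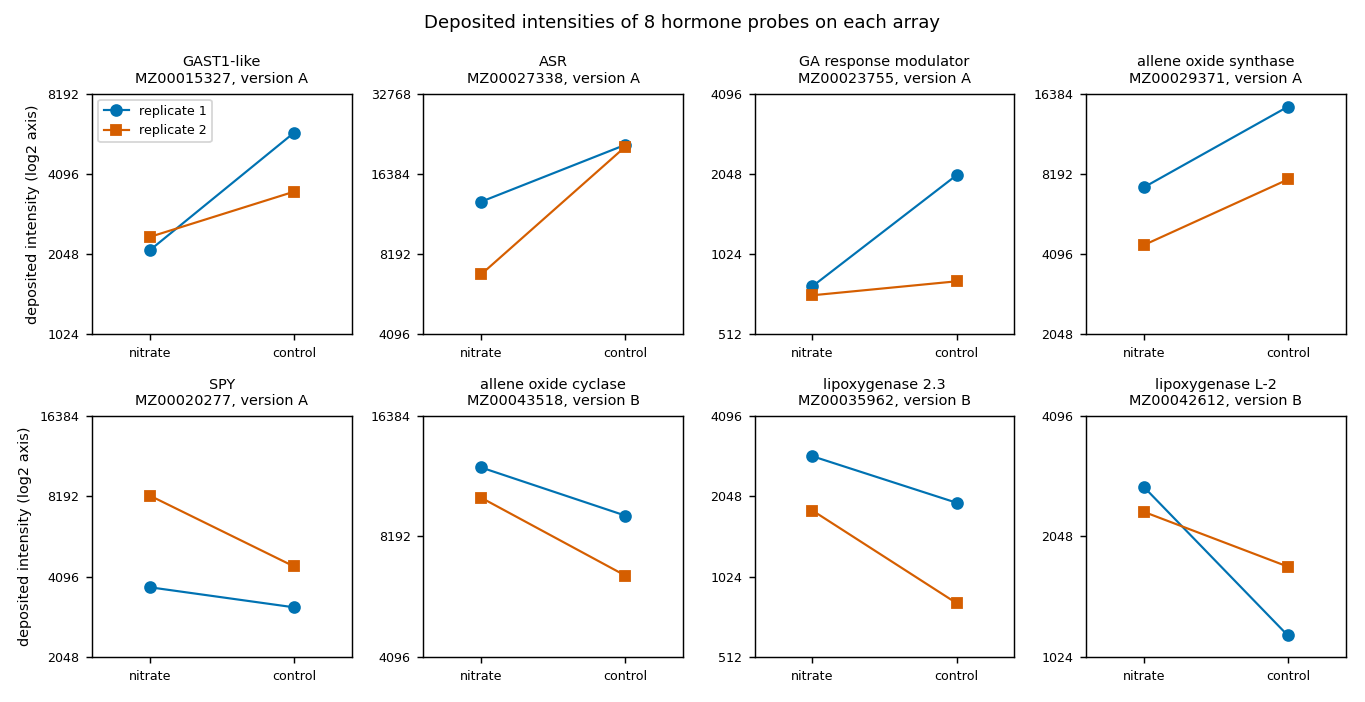
Deposited background-subtracted intensity (y axis, log2 scale) in nitrate-treated roots, left in each panel, and control roots, right, for 8 hormone probes on their replicate arrays. Lines join the channels of 1 array. They climb towards control for the GAST1-like, ASR, gibberellin response modulator and allene oxide synthase probes shown. They drop towards control for the SPY, allene oxide cyclase and lipoxygenase probes shown. Each panel is 1 probe and not its family. The median log2 ratio was 0.01 over the 4 allene oxide cyclase probes and -0.02 over the 34 tested lipoxygenase probes.

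Lipoxygenases add oxygen to polyunsaturated fatty acids and begin jasmonate synthesis as well as other oxylipin pathways. With 34 tested probes of 36 they were the largest family, and their median log2 ratio was -0.02 (0.01 with median centring, and 0.09 and -0.10 by replicate). Of these 7 were lower with nitrate on both arrays, 17 had opposite signs and 10 were higher on both, or 8 without the 2 that give no exact ratio. The 12 probes whose descriptions are those of 3 maize lipoxygenase proteins included 7 for one of them, of which the 6 that give a ratio ranged between -0.46 and 0.34, with 1 higher and 1 lower on both arrays. The seventh, MZ00041271, was among the brightest probes, with 57940 and 63348 with nitrate, against 73935 and 63409 in control roots. It was saturated in the control channel of both arrays and in the nitrate channel of 1, and gives no ratio.

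The highest lipoxygenase probe was also the hormone probe with the smallest adjusted p. MZ00035962, described as barley chloroplast lipoxygenase 2.3, had intensities of 2892 and 1810 with nitrate, against 1936 and 814 in control roots. It was higher with nitrate on each array by nearly the same ratio, 0.71 and 0.64, with a mean of 0.67 ± 0.04 (SD, n = 2) and a limma adjusted p of 0.298. The 4 other probes with that description were dim or had negative mean log2 ratios. MZ00027702 was dim, with 84 and 48 with nitrate, against 4 and -15 in control roots, where it was not above blank spots on either array, so no ratio is given. The remaining 3 lay between -0.21 and -0.13. Of these, MZ00013843 read higher with nitrate on each array, with 170 and 105 against 131 and 69 in control roots. Its log2 ratio was 0.24 with median centring. MZ00042612, for lipoxygenase L-2, had 2723 and 2359 with nitrate, against 1158 and 1721 in control roots. Its log2 ratios of 1.23 and 0.11 differed by more than the mean, 0.67 ± 0.80 (SD, n = 2, adjusted p = 0.389 by limma). MZ00035997 had 1331 and 1180 with nitrate, against 1215 and 438 in control roots, and MZ00002746 had 1268 and 1175 with nitrate, against 1174 and 427 in control roots. Both had almost the same values on every array, with log2 ratios of 0.44 ± 0.44 for MZ00035997 and 0.43 ± 0.48 for MZ00002746 (SD, n = 2 each). With print-tip loess the ratios moved apart, to 0.55 for MZ00035997 and 0.23 for MZ00002746. The authors' ratios gave 0.67 and 0.23.

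The 6 lipoxygenase probes with the lowest mean log2 ratios differed mostly on the replicate 2 array. MZ00015701 had intensities of 23400 and 21202 with nitrate, against 35158 and 54476 in control roots, and log2 ratios of -0.18 and -1.04. Both nitrate readings lay below both control readings, and the mean log2 ratio was -0.61 ± 0.61 (SD, n = 2, adjusted p = 0.435 by limma). MZ00013871 had 25778 and 19560 with nitrate, against 38631 and 38533 in control roots, and a log2 ratio of -0.42 ± 0.35 (SD, n = 2). MZ00044877, which matches the same maize protein as MZ00013871, had 15186 and 17154 with nitrate, against 17948 and 38596 in control roots, and opposite ratios of 0.20 and -1.12. The dimmer 3 were MZ00000521, with log2 ratios of 0.16 and -1.23, MZ00035571, with -0.04 and -0.88, and MZ00044612, with -0.19 and -0.59. All 6 thus had a smaller difference or the opposite sign on the replicate 1 arrays. With median centring the mean was lower for the bright MZ00015701 (-1.02), MZ00013871 (-0.83) and MZ00044877 (-0.85) and nearer 0 for MZ00044612 (-0.03). No lipoxygenase probe was past 2-fold on both.

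Allene oxide synthase turns the lipoxygenase product into an unstable oxide on the way to jasmonate. Of its 4 tested probes 3 were lower with nitrate on both arrays and 0 were higher on both, with a median log2 ratio of -0.26 (-0.43 with median centring). MZ00029371 had intensities of 7288 and 4429 with nitrate, against 14620 and 7801 in control roots. Both nitrate readings lay below both control readings, and the log2 ratios of -0.67 and -0.75 were close to each other. Their mean was -0.71 ± 0.06 (SD, n = 2), the lowest of the jasmonate probes, with a limma adjusted p of 0.345. MZ00044190 had 43704 and 40836 with nitrate, against 73925 and 63391 in control roots, where it was saturated on both arrays. Taking the saturated readings at their value, its level was at least 1.37-fold lower with nitrate after loess (limma adjusted p = 0.467), and this bound was 1.29 with the authors' ratios, the lowest of the normalizations tried. The other 2 tested probes, MZ00002077 and MZ00022994, had log2 ratios of -0.07 ± 0.09 and 0.04 ± 0.33 (SD, n = 2 each). MZ00034402 read between -46 and 28 and was not tested.

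Allene oxide cyclase, the next enzyme, had 4 probes on version B that match 1 maize protein, and they did not give 1 answer. MZ00043518 had intensities of 12178 and 10233 with nitrate, against 9234 and 6541 in control roots, and a log2 ratio of 0.66 ± 0.19 (SD, n = 2, adjusted p = 0.311 by limma), or 0.36 with median centring. MZ00024602 had 8215 and 5859 with nitrate, against 14122 and 7274 in control roots, and a log2 ratio of -0.41 ± 0.06 (SD, n = 2, adjusted p = 0.51 by limma), or -0.69 with median centring. The difference between these probes of 1 description exceeded the spread between their replicates. MZ00043517 had 20919 and 12717 with nitrate, against 33125 and 13549 in control roots, and a log2 ratio of -0.17 ± 0.07 (SD, n = 2). MZ00043516 had 27229 and 28059 with nitrate, against 36930 and 21716 in control roots, and ratios of opposite sign. The family median of 0.01 was negative with median centring (-0.36), print-tip loess (-0.03) and the authors' ratios (-0.04).

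The 12-oxophytodienoate reductase, which acts on the cyclase product, had 5 probes that match 1 rice protein, with mean log2 ratios between -0.64 and -0.01. Their median was -0.27 (-0.20 and -0.45 by replicate), and 2 were lower on both arrays. MZ00027030 had intensities of 10243 and 8051 with nitrate, against 22122 and 13191 in control roots. Both nitrate readings lay below both control readings, and the log2 ratio was -0.64 ± 0.13 (SD, n = 2, adjusted p = 0.379 by limma). MZ00041946 had 6596 and 7229 with nitrate, against 9892 and 9189 in control roots, and a log2 ratio of -0.33 ± 0.17 (SD, n = 2). MZ00010710, MZ00035604 and MZ00027029 had opposite signs on the replicates, and the sign of the mean of MZ00027029 turned with the normalization. MZ00014430, for a 60 kDa jasmonate-induced protein that is a ribosome-inactivating protein in barley, had 18653 and 19361 with nitrate, against 18932 and 29730 in control roots, and opposite log2 ratios of 0.38 and -0.33.

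Several probes often stand for 1 gene, and near copies cannot be told apart. The 99 probes have 48 distinct top protein hits, and 71 of them share a hit with at least 1 other. The deposited annotation lists another maize sequence with a full-length perfect match for 28 of the 99. In all 4 readings 92 of the 99 exceeded the level that 95% of buffer and blank spots stayed under. The 4 probes not tested were MZ00034402 for allene oxide synthase, MZ00032134 for a gibberellin response modulator, and the lipoxygenase probes MZ00032034 and MZ00000005. The last of these read 4795 on one array and 13 on the other with nitrate, against 5061 and 3 in control roots.

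The interval around each mean shows what 2 arrays could resolve. The 95% interval of the limma fit lay inside a 2-fold difference in either direction for 70 of the 95 tested hormone probes, where 74.4% of all tested probes had such an interval. It reached 2-fold higher for 7 and 2-fold lower for 18. Of all 53122 tested probes it reached 2-fold higher for 7949 and 2-fold lower for 5711. For MZ00015327, the lowest probe, it ran between -1.53 and -0.33 on the log2 scale, and for MZ00035962, the highest, between 0.14 and 1.21. These intervals are not adjusted for the number of probes and, with 1 residual degree of freedom, rest mainly on the spread pooled over probes.

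Other genes of the same pathways, gathered from descriptions outside the 99 probes, also gave 0 probes past the limma test in each list. Over all tested probes 12.5% had an unadjusted limma p under 0.05, 30.1% were higher on both arrays and 30.4% were lower on both. Abscisic acid synthesis and signalling had 128 tested probes, 11 of them at an unadjusted limma p under 0.05, with a median log2 ratio of -0.08, 46 lower and 28 higher on both arrays. Of these 36 were described as putative protein phosphatase 2C, a family that includes repressors of abscisic acid signalling, with a median of -0.10, 17 lower and 3 higher on both arrays. Other descriptions of that family gave a median of 0.06 over 8 probes (4 higher and 3 lower on both arrays), -0.23 over 7 (0 higher and 4 lower), -0.19 over 6 (2 higher and 3 lower) and -0.13 over 4 (0 higher and 1 lower). The highest probe of the list was also a phosphatase 2C, MZ00026195, with intensities of 3834 and 7095 with nitrate, against 2586 and 3697 in control roots, and a log2 ratio of 0.83 ± 0.18 (SD, n = 2, adjusted p = 0.312 by limma). Viviparous-14, the maize 9-cis-epoxycarotenoid dioxygenase, had 7 tested probes with a median of 0.12 (0.24 and -0.03 by replicate), 3 higher and 1 lower on both arrays. Its lowest probe, MZ00028568, had intensities of 6465 and 2619 with nitrate, against 31180 and 3283 in control roots, and a log2 ratio of -1.14 ± 1.06 (SD, n = 2, adjusted p = 0.349 by limma). The log2 ratio was -1.88 on the replicate 1 array and -0.39 on the replicate 2 array. The abscisic acid-responsive list of dehydrins, late embryogenesis abundant proteins and the like had 20 tested probes, 2 of them at an unadjusted p under 0.05, with a median of -0.10 (-0.21 and -0.03 by replicate), 8 lower and 4 higher on both arrays.

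Among the other gibberellin genes 1 probe was past 2-fold on both arrays. Of 26 tested probes 7 had an unadjusted limma p under 0.05 (12.5% of all tested probes). On both arrays 10 were higher (30.1%) and 4 were lower (30.4%), and the median log2 ratio was 0.17. Copalyl pyrophosphate synthase, which makes the first precursor committed to gibberellins and related diterpenes, had 1 probe at least 2-fold higher on both arrays, MZ00002539. It had intensities of 7199 and 7474 with nitrate, against 3364 and 3080 in control roots, so both nitrate readings lay above both control readings. Its log2 ratio was 1.28 ± 0.01 (SD, n = 2), with a limma adjusted p of 0.197. The 4 probes described as maize kaurene synthase A had a median of -0.17 (-0.18 and -0.15 by replicate, and 0.16 with median centring). Of these 2 were lower and 1 was higher on both arrays. Whether they and MZ00002539 stand for the same enzyme was not tested. The GAMYB-binding proteins had 7 probes with a median of 0.58 (0.32 with median centring), 5 higher and 0 lower on both arrays. The GAI protein probe MZ00018352, for a DELLA repressor, had 683 and 593 with nitrate, against 1740 and 622 in control roots, and a log2 ratio of -0.78 ± 0.61 (SD, n = 2), again mostly on the replicate 1 array.

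The other jasmonate genes had near equal counts in both directions. Of 36 tested probes of synthesis and signalling 7 had an unadjusted limma p under 0.05 (12.5% of all tested probes). On both arrays 12 were higher (30.1%) and 11 were lower (30.4%). The median was -0.02 (0.04 and -0.09 by replicate, and -0.08 to -0.09 without normexp, with median centring, with print-tip loess and with the authors' ratios). COI1, the F-box protein of the jasmonate receptor in Arabidopsis, had 6 probes with a median of 0.42 (0.17 with median centring), 5 higher and 1 lower on both arrays. The highest, MZ00007993, had intensities of 1639 and 4210 with nitrate, against 1186 and 1457 in control roots, and a log2 ratio of 0.92 ± 0.64 (SD, n = 2, adjusted p = 0.34 by limma). The lowest of the 36 was MZ00016061, for the maize omega-3 fatty acid desaturase FAD7 that supplies linolenic acid. It had 1429 and 1728 with nitrate, against 3145 and 3781 in control roots. Both nitrate readings lay below both control readings, and its log2 ratio was -1.13 ± 0.31 (SD, n = 2, adjusted p = 0.147 by limma). The 5 probes described as fatty acid desaturase had a median of 0.09 (-0.05 with median centring), 2 higher and 1 lower on both arrays. The list of jasmonate- and wound-responsive transcripts, mostly proteinase inhibitors, had 49 tested probes, 10 of them at an unadjusted p under 0.05, with a median of 0.11 (0.29 on the replicate 1 arrays and -0.17 on the replicate 2 arrays), 18 higher and 13 lower on both. In it MZ00017876, a proteinase inhibitor, was the 1 probe at least 2-fold lower on both arrays, with 287 and 571 with nitrate, against 757 and 1282 in control roots, and a log2 ratio of -1.26 ± 0.05 (SD, n = 2, adjusted p = 0.2 by limma). MZ00003832, a protease inhibitor, had 937 and 1600 with nitrate, against 405 and 530 in control roots, and a log2 ratio of 1.07 ± 0.19 (SD, n = 2, adjusted p = 0.261 by limma).

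The 2 channels of an array differed in brightness, and the direction differed between replicates. The median intensity of maize probes is given here for the nitrate channel and then the control channel. On the replicate 1 arrays it was 1572.5 and 1639 for version A, and 1788 and 1960 for version B. On the replicate 2 arrays it was 1878.5 and 1593 for version A, and 1939 and 1438 for version B. Statements that both nitrate readings lay below or above both control readings compare deposited intensities before loess. The probes so described were named for being among the highest or lowest, and the share of all probes with such readings was not counted. Such readings were also found for MZ00041946, MZ00013871, MZ00021508 and MZ00033558, where the text does not state it. All 39 root marker probes exceeded the blank spots in all 4 readings, as did 117 of 132 leaf marker probes and 162 of 319 seed marker probes. These counts cannot show the tissue, because leaf and seed markers passed the same level. The brightest probe of each list was saturated in all 4 readings: MZ00040642 for root, MZ00036116 for leaf and MZ00013346 for seed. The root markers had a median log2 ratio of 0.23, with 21 higher and 7 lower on both arrays (30.1% and 30.4% of all tested probes). The part of these markers in the hormone values was not tested.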

How the data were processed

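The 4 arrays had 2 colours each, with 2 replicates per version, and the versions hold mostly different probes. Version A held 28830 maize probes and version B 27097, with 55547 distinct over both. A probe on both versions counts in each for the shares over all tested probes. The deposited intensity per dye is a whole number, sometimes below 0, so the authors had subtracted a background. The deposited ratio of nitrate over control was normalized by the authors within arrays. Their methods, and the meaning of flag B, are not given in the sources used here. Nitrate-treated roots were labelled with Cy3 and control roots with Cy5 on all 4 arrays, per the labels, so a dye effect of a probe stays in its ratio. Series text gives 2 biological replicates, but not whether control RNA came from separate plants, so p-values may measure technical spread in part.

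R 4.3.3 with limma 3.58.1 gave log2 ratios from the intensities, using normexp (offset 50) and then global loess, with control spots at weight 0 and B-flagged spots (4 to 10 an array) left out. The test took probes with at least 1 channel over the 95th percentile of buffer and blank spots on each array, 28374 of version A and 24748 of version B. Ratios were tested against 0 with lmFit and eBayes, 2-sided, with Benjamini-Hochberg adjustment within each version. The fit was tested on simulated data. Readings of at least 98% of a channel's highest value counted as saturated.

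Probes named with values are the 8 highest and 8 lowest with the same sign on both arrays, the brightest of each role, and those sharing a protein hit with them; others are named to complete their family, chosen after their values were seen. In the pathway lists the probes named were the highest or lowest of their list by mean log2 ratio. Members and lists were chosen with earlier results of these data known. The planned pattern for gibberellin 2-oxidases also matched 20-oxidases, which were put under synthesis by description, and false text matches in the pathway lists were left out. Alternatives were other backgrounds, normalizations, filters and priors, the authors' ratios, and each array alone.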

Additional observations from a re-analysis of the deposited data

How the results depend on the processing

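No hormone probe passed the limma test in any of the 9 settings tried, and the smallest adjusted p among them was 0.119, with median centring. That value belongs to MZ00044190, which was saturated in control roots on both arrays and gives only a bound. The count at least 2-fold higher on both arrays, 0 in the report, was 1 with the authors' ratios: MZ00019826, an abscisic acid-induced protein near the level of blank spots. Each replicate alone gave 0 to 1 probes at least 2-fold higher and 2 to 6 at least 2-fold lower. Between 35 and 38 probes were lower on both arrays and between 16 and 24 higher over the settings. Signs turned for 28 of the 92 probes with a ratio in at least 1 of 5 normalization or background alternatives; the cause was not tested. With median centring the group medians became 0.0458 for gibberellin synthesis, 0.0105 for lipoxygenases and -0.37 for the jasmonate-induced protein MZ00014430 (-0.0192 with the authors' ratios). The replicate arrays alone gave medians of 0.0449 to 0.13 for gibberellin synthesis, -0.10 to 0.0943 for lipoxygenases and -0.33 to 0.38 for MZ00014430. With median centring the log2 ratio was 0.19 for MZ00042589, -0.00857 for MZ00036335, -0.0827 for MZ00041068, 0.000386 for MZ00000544, 0.24 for MZ00013843, 0.15 for MZ00039007, -0.19 for MZ00043516 and 0.19 for MZ00027029. With print-tip loess it was 0.0345 for MZ00042589, -0.16 for MZ00030278 and 0.14 for MZ00027029, and with the authors' ratios 0.0463 for MZ00042589 and 0.14 for MZ00027029. No paired analysis was possible beyond that of the limma test, because its ratios already pair nitrate with control on each array. The versions hold mostly different probes, so arrays were not paired across versions. Only 2 arrays a version, both of the same dye orientation, limit what these data resolve, and dim probes are known less well.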
